A study of Danio rerio with 6 samples.

Results

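The 200 most abundant transcripts in endothelial cells sorted from the tails of zebrafish larvae are described here, out of 57192 transcripts listed and 18959 tested. They were chosen by dividing each of the 6 libraries by its total, expressing the counts as CPM, which are counts in every 1000000 of the library, averaging the 6 values of each transcript and taking the 200 highest means. Their level was thus used to choose them and is given as a description, without a test. The difference between the groups was not used, but a very high value in a single library can carry a transcript into the set. All 200 passed the filter on low counts, so every one of them was tested.

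The larvae were Tg(flk:GFP) fish of genotype WT in both groups. In this line the promoter of flk, a gene for a receptor of vascular endothelial growth factor, drives green fluorescent protein, so the sort selects cells by the activity of that promoter. The control group (PBS, 3 libraries) was injected with phosphate-buffered saline, and the EV group (3 libraries) with extracellular vesicles from MV4-11, a human acute myeloid leukaemia cell line. Tails were taken 24 h after injection, and about 100000 GFP-positive cells were sorted for each RNA preparation. The labels used here give neither larval age nor vesicle dose. They state 3 replicates per treatment without saying whether these were separate pools of larvae, so every p-value measures only how far these libraries differ, and that spread may be technical.

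Endothelial cells line blood vessels, control what passes into the tissue, and present adhesion molecules to circulating cells. In the tail of the zebrafish larva they form the axial artery and vein and a venous plexus that houses blood stem cells. Extracellular vesicles are membrane-bound particles that carry protein and RNA between cells. In animal cells in general, the upper end of the transcriptome is made up largely of transcripts for ribosomal proteins, translation factors, mitochondrial proteins and the cytoskeleton. Whether that holds here was not analysed, because the table gives transcript identifiers alone and 0 of the 200 matched either reference table of gene names. For the same reason the label of the cells was not checked against endothelial markers, nor were markers of other cell types looked for. The transcripts are therefore called by their rank in mean CPM. CPM is not divided by transcript length, so a rank says how many of the counts a transcript took and not how many molecules of it were present. In bulk RNA, fewer cells of a type and less RNA per cell cannot be told apart.

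The counts were held in large part by few transcripts. The 200, which are 1.05% of those tested, took 50.4%, 56.2% and 60.8% of the counts in PBS replicates 1, 2 and 3. The shares of EV replicates 1, 2 and 3 were 49.4%, 48.5% and 56.0%. PBS thus averaged 55.8% ± 5.23 and EV 51.3% ± 4.14 (SD, n = 3 each). The groups overlapped, since EV replicate 3 lay above PBS replicate 1. Between libraries of the same number, EV was lower in each of the 3 pairs. These shares depend on the choice of the 200, since a transcript admitted by a high value in a single library adds most to that library. With 200 chosen by median CPM the mean share was 54.1% in PBS and 51.4% in EV. The total of a library was between 10393944 and 24332767 counts, so the shares themselves carry little counting error.

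**Figure D1:**
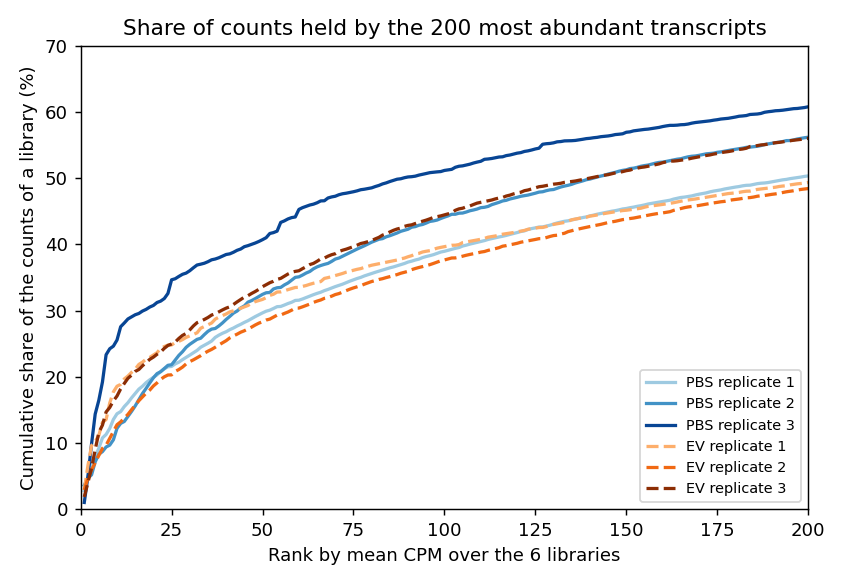
The share of the counts of each library (vertical axis, percent) is added up over the transcripts in order of mean CPM (horizontal axis, rank 1 to 200). Solid lines are PBS libraries and dashed lines EV libraries; PBS replicate 3 runs above the other 5 from the first few transcripts on and ends at 60.8%, and EV replicate 2 ends lowest at 48.5%.

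The counts were concentrated to a different degree in different libraries. The 10 most abundant transcripts took 25.6% in PBS replicate 3, and 14.4% and 12.2% in PBS replicates 1 and 2. The share they took was 18.6%, 12.8% and 17.1% in EV replicates 1, 2 and 3. PBS replicate 3 was the highest of the 6 and PBS replicate 2 the lowest, so the PBS group enclosed the EV group. Counted by each library's own order, 76 transcripts were enough to hold 50% of the counts in PBS replicate 3, whereas 189 and 130 were needed in PBS replicates 1 and 2. The numbers in EV replicates 1, 2 and 3 were 194, 208 and 129.

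Mean levels ran from 25261 CPM for the most abundant transcript to 2713 CPM at rank 50, 1446 CPM at rank 100 and 805 CPM at rank 200. There were 10 transcripts with a mean of at least 10000 CPM and 158 with at least 1000 CPM. The edge of the set is not a gap. Ranks 198, 199 and 200 had means of 807.3, 806.9 and 805 CPM, and the 3 transcripts outside it, at ranks 201, 202 and 203, had 798.9, 794.4 and 786.9 CPM. Rank 202 reached 1881 CPM in PBS replicate 3 and 1742 CPM in EV replicate 3 and lay between 172 and 380.6 CPM in the other 4 libraries, so a high value in a few libraries can carry a transcript close to the set.

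Membership was shared between libraries to a large extent. Of the 200, 120 were among the 200 most abundant of every library taken alone, and 29 were among them in 5 libraries. At the upper end 49 of the first 50 were in all 6, and at ranks 151 to 200 only 3 of 50 were. PBS replicate 3 had the fewest of the set in its own 200, with 158, and PBS replicate 1 the most, with 184. Over the 6 libraries, 304 different transcripts were in the 200 most abundant of at least 1 library.

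The most abundant transcripts were not the same in rank from library to library. The transcript of rank 1 had 28116, 36284 and 10243 CPM in PBS replicates 1, 2 and 3, and 29200, 29154 and 18569 CPM in EV replicates 1, 2 and 3. It was the most abundant of all in PBS replicates 1 and 2 and in EV replicate 2, and it stood in place 11 in PBS replicate 3. The transcript of rank 2 had 21819, 10678 and 38978 CPM in PBS and 36566, 17630 and 21651 CPM in EV. For both, the PBS values enclosed the EV values.

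Ranks 3 and 6 varied in a like manner. Rank 3 had 21206, 4988 and 49426 CPM in PBS replicates 1, 2 and 3 and 30477, 12903 and 21907 CPM in EV replicates 1, 2 and 3. Rank 6 had 15624, 4036 and 27722 CPM in PBS and 19681, 11267 and 11269 CPM in EV. Both were lowest in PBS replicate 2 and highest in PBS replicate 3, and again the EV values lay within the range of PBS.

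Ranks 4, 5 and 7 were high in the libraries numbered 3. Rank 4 had 8460, 19564 and 45088 CPM in PBS and 6088, 10683 and 27918 CPM in EV. Rank 5 had 12557, 11517 and 20940 CPM in PBS and 9303, 10418 and 25807 CPM in EV. Rank 7 had 5216, 6979 and 41035 CPM in PBS and 4178, 4734 and 19775 CPM in EV. In each of these the highest pair of values came from PBS replicate 3 and EV replicate 3, one from each group, and the groups overlapped.

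Ranks 8, 9 and 10 completed the transcripts above 10000 CPM. Rank 8 had 9154, 2820 and 9018 CPM in PBS and 25048, 10371 and 6847 CPM in EV. Rank 9 had 13440, 7994 and 3954 CPM in PBS and 16709, 10025 and 9939 CPM in EV. Rank 10 had 8654, 17410 and 9264 CPM in PBS and 8606, 10517 and 7377 CPM in EV. Rank 8 was highest in EV replicate 1, rank 9 was lowest in PBS replicate 3 and rank 10 was highest in PBS replicate 2, and in none of these 3 were the groups apart.

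**Figure D2:**
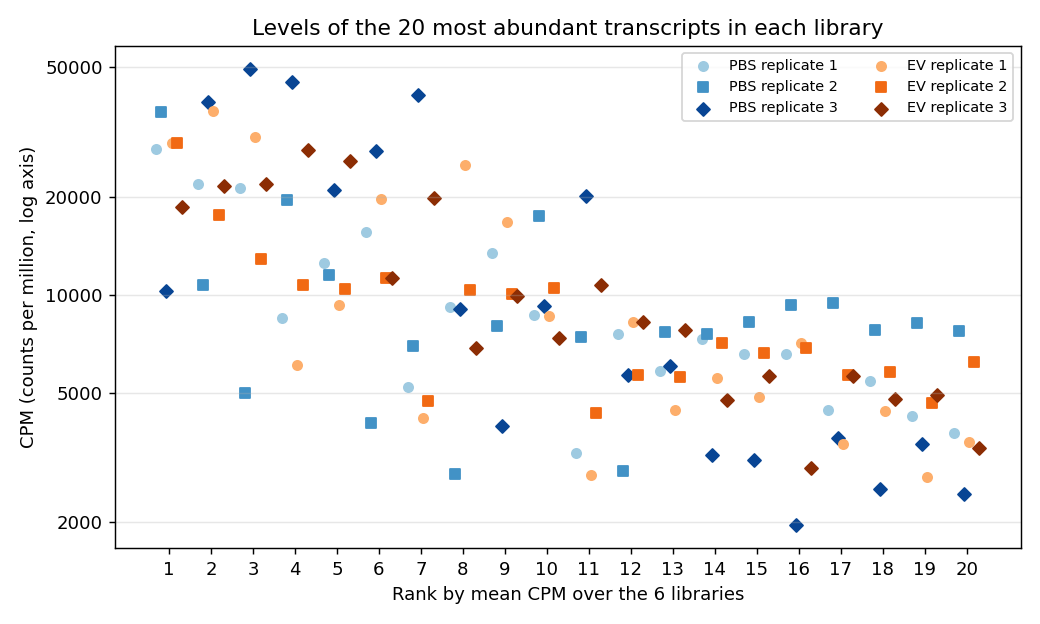
Levels of the transcripts of rank 1 to 20 (horizontal axis) in each library in CPM (vertical axis, log axis); blue symbols are PBS libraries, orange and brown symbols EV libraries, and each symbol is 1 library. The symbols of both groups are mixed at each of the first 10 ranks, and the dark blue diamonds of PBS replicate 3 stand highest at ranks 2, 3, 4, 6, 7 and 11.

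The libraries differed in the level of the set as a whole. PBS replicate 2 had the highest value of the 6 for 86 of the 200 transcripts, and EV replicate 3 for 49. PBS replicate 3 had the lowest value for 84 and EV replicate 1 for 80. These counts use library totals, and on the scale of edgeR's trimmed mean of M values (TMM), which sets libraries level by the bulk of their transcripts, other numbers hold. On that scale PBS replicate 2 was the highest for 109 and PBS replicate 3 for 54, and EV replicate 1 was the lowest for 118 and EV replicate 2 for 34. A value more than 2-fold above the transcript's own median over the 6 libraries occurred 17 times in PBS replicate 3 and 1 to 11 times in the others. A value more than 2-fold below it occurred 40 times in PBS replicate 3 and 1 to 15 times in the others. PBS replicate 3 thus departed most often in both directions.

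**Figure D3:**
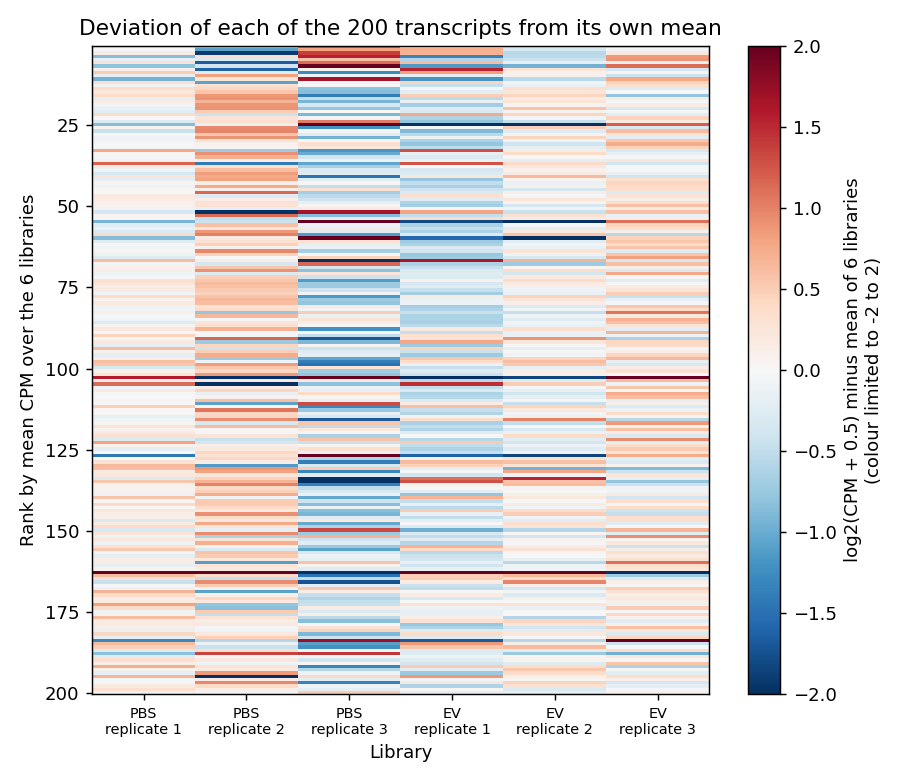
Each row is 1 of the 200 transcripts in order of rank, each column 1 library, and the colour gives log2(CPM + 0.5) minus the mean of the transcript over the 6 libraries, limited to -2 to 2. Red prevails in the column of PBS replicate 2, which was highest for 86 transcripts, and dark blue and dark red rows are most frequent in PBS replicate 3, which lay over 2-fold below the median for 40 transcripts and over 2-fold above it for 17.

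Libraries that carry the same replicate number deviated together in these transcripts. The deviation of each value from its group mean had a Pearson correlation of 0.67 between PBS and EV replicate 1, 0.84 for replicate 2 and 0.84 for replicate 3, over 200 transcripts that share libraries and depth. Between libraries of different numbers it ran from -0.89 to 0.47. Across all 18959 transcripts tested, the same-numbered values were 0.21, 0.30 and 0.31. Deviations from a group mean sum to 0 within a group, so high values for one combination force low ones for others. The level itself, as log2(CPM + 0.5) over the 200, correlated at 0.93 between PBS replicate 1 and EV replicate 1, at 0.83 between PBS replicate 2 and EV replicate 2 and at 0.87 between PBS replicate 3 and EV replicate 3. Some libraries of different numbers were as close, with 0.92 between EV replicates 1 and 2 and 0.91 between PBS replicate 1 and EV replicate 2. The lowest correlation was 0.34, between PBS replicate 3 and EV replicate 2.

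The replicate error of the abundant transcripts is given here beside their counting error. At the median level of the set a library held 15305 to 38159 counts per transcript, for which counting error alone is 0.512% to 0.808%. No molecular identifiers are described, so reads copied in amplification are counted more than once, and this figure covers counting error only. The median coefficient of variation of CPM between libraries of a group was 37.3% in PBS and 28.8% in EV (n = 3 each). Over all transcripts tested these were 83.5% and 48.0%. On the log2 scale the median SD within groups was 0.51 for the 200, 0.60 for ranks 201 to 1000 and 0.95 for all tested. With TMM scaling the value for the 200 was 0.66. From edgeR's dispersion of each transcript, which uses TMM scaling, the coefficient of variation at the median was 52.7% for the 200. It was 51.4% for ranks 201 to 1000 and 89.5% for all tested. With library totals, the median SD of ranks 201 to 1000 was 0.71 in PBS and 0.42 in EV. The SD was larger in PBS than in EV for 14557 of all 18959 tested and 626 of 800 at ranks 201 to 1000. The 200 were not particular in this, with a count of 139 and medians of 0.56 in PBS and 0.43 in EV. Both medians fell most without the libraries numbered 3, and other libraries moved them too. The PBS median was 0.63 without PBS replicate 1 and 0.44 without PBS replicate 2. The EV median was 0.36 without EV replicate 1 and 0.50 without EV replicate 2. Without PBS replicate 3 the PBS median was 0.36 and the SD was larger in PBS for 90 of the 200. Without EV replicate 3 the EV median was 0.28 and the count 166. The coefficients of variation moved likewise, to 24.5% in PBS without PBS replicate 3 and to 19.4% in EV without EV replicate 3. The counts of 90 and 166 set groups of unequal size beside each other, and the median of an SD depends on that size. Without both libraries numbered 3 the median SD was 0.36 in PBS and 0.28 in EV. The SD was then larger in PBS for 125 of the 200.

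**Figure D4:**
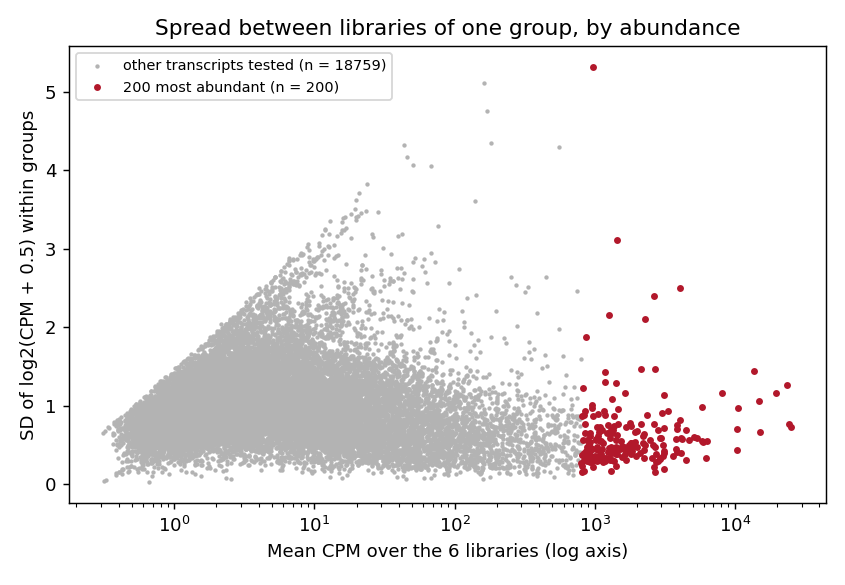
Each point is 1 transcript, with its mean CPM over the 6 libraries on the horizontal axis (log axis) and the SD of log2(CPM + 0.5) within groups on the vertical axis. The 200 most abundant (red) have a median SD of 0.51, against 0.95 for all transcripts tested, and a few of them reach above 2.

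On the scale of library totals, the steadiest of the 200 varied little over all 6 libraries. Rank 51 had 2548, 2398 and 3003 CPM in PBS replicates 1, 2 and 3 and 2629, 2570 and 3038 CPM in EV replicates 1, 2 and 3, an SD of 0.14 on the log2 scale. Rank 196 also had an SD of 0.14, with values from 695.4 to 904.5 CPM. Ranks 189, 120 and 36 followed with SDs of 0.16, 0.16 and 0.18. These 5 had overlapping groups. Their steadiness is that of library totals and was not examined with TMM scaling. Rank 51 was lower in EV in 0 of the 3 same-numbered pairs with library totals and in 3 with TMM scaling.

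The least steady transcript was that of rank 163. It had 1705 and 1112 CPM in PBS replicates 1 and 2 and 0 counts in PBS replicate 3, and it had 986.4, 2009 and 19.1 CPM in EV replicates 1, 2 and 3. It was the only one of the 200 with no count in some library, and it was low in both libraries numbered 3. Rank 103 ran the other way, with 1372, 44.7 and 3120 CPM in PBS and 92.3, 127.6 and 3854 CPM in EV. Their SDs over the 6 libraries were 4.86 and 2.81 on the log2 scale. Both had values that were not whole numbers in 5 libraries, which arise where reads are divided among similar transcripts, and how far that division moved them was not tested.

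A few transcripts were far higher in PBS replicate 3 than elsewhere. Rank 25 had 519.6, 852.5 and 20573 CPM in PBS replicates 1, 2 and 3 and 210.4, 174.4 and 2201 CPM in EV replicates 1, 2 and 3. Rank 55 had 357.4, 505 and 13220 CPM in PBS and 195.3, 147.4 and 1474 CPM in EV. Rank 60 had 369.9, 763.9 and 11398 CPM in PBS and 229.8, 134.8 and 932.2 CPM in EV. In all 3, PBS replicate 3 was highest and EV replicate 3 second, and the groups overlapped because EV replicate 3 exceeded PBS replicates 1 and 2. Rank 127 had the same order of libraries, with 152.6, 495.3 and 5975 CPM in PBS and 133.6, 114.5 and 684 CPM in EV. With rank 7 these are the 5 transcripts that were more than 5-fold higher in PBS replicate 3 than in either other PBS library. Together they took 9.22% of the counts of that library, 2.51% of those of EV replicate 3 and 0.495% to 0.96% of those of the other 4. The 5-fold limit was set after their values were seen.

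A value that is not a whole number shows that reads were divided among transcripts. Of the 200, 42 (21%) were whole in all 6 libraries as deposited, against 20.5% of all transcripts tested. Of the 10 most abundant, 8 were whole in all 6 libraries. The median SD within groups was 0.58 for the 42 and 0.50 for the other 158. Ranks 2, 3, 4 and 6 are among these 8. What part the division of reads has in the spread was not tested.

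EV was compared with PBS to learn which of these transcripts differ in tail endothelium 24 h after the vesicles were injected. None passed the test. The edgeR quasi-likelihood test, with TMM scaling and Benjamini-Hochberg adjustment over all 18959 transcripts, called 0 of the 200 and 0 of all tested (0%) at an adjusted p of 0.05. At an unadjusted p under 0.05 it gave 4 of the 200, which were 0 higher and 4 lower in EV, where 0.912% of all tested were higher and 1.97% lower, so the share among the 200 was close to that of all tested. DESeq2 also gave 4 at that level, 0 higher and 4 lower (1.47% and 2.73% of all tested), and called 0 of the 200 (0.327% of all tested). It gave neither a p nor an adjusted p for 2 of them, ranks 25 and 55, so these could not enter either count. Limma-voom gave 0 higher and 2 lower (2.29% and 0.944%) and called 0 of the 200 (0%). The standard error of the log2 fold change had a median of 0.55 among the 200, from 0.40 to 1.88, of 0.50 among ranks 201 to 1000 and of 1.06 among all tested. At this error a count of 0 does not show equal expression.

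A block for the replicate number gave other counts. With it the edgeR test again called 0, and 15 of the 200 had an unadjusted p under 0.05, 1 higher and 14 lower in EV, against 1.02% and 1.61% of all tested. With the block DESeq2 called 5 of the 200 (0.86% of all tested were called), and limma-voom called 5 (0.127% of all tested). They were the same 5, the transcripts of rank 25, 55, 60, 127 and 131, and all were lower in EV. For ranks 25 and 55 DESeq2 gave a p only with the block. The first 4 of the 5 are among those highest in PBS replicate 3. They stood at places 7, 9, 10 and 17 in that library and at places 204 to 892 in PBS replicates 1 and 2. The choice by mean CPM thus admitted them largely through a high PBS value, which favours a lower value in EV. Counts of calls that include them are therefore partly set by the choice of the 200. At an unadjusted p under 0.05 DESeq2 then gave 1 higher and 14 lower (4.67% and 3.28% of all tested), and limma-voom 3 higher and 66 lower (1.7% and 4.09%). The block is an assumption read from these libraries, and the calls are not independent support for a difference. Without the block, edgeR without a filter on low counts also called 5 of the 200, against 1.09% of the 39325 transcripts then tested; 4 of them are among the 5 above, and rank 188 was the other. That fit gave 0 higher and 11 lower at an unadjusted p under 0.05 (2.48% and 5.28%). With library totals these were 1 and 6 (1.48% and 0.712%), and without EV replicate 3 they were 0 and 13 (1.12% and 1.89%).

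The 200 as a whole had a lower median fold change than all transcripts tested. Their median log2 fold change was -0.51, and that of all transcripts tested was -0.20, a difference of -0.31. Of the 200, 17 had a fold change above 0 and 183 below, and of all tested 40.9% were above and 59.1% below. The scaling moved both medians: with library totals the median of the 200 was -0.09, that of all tested 0.23, and the difference -0.32. On that scale 70 were above 0 and 130 below, with 61.5% of all tested above and 38.5% below. By abundance, the median with TMM scaling was -0.55 for ranks 1 to 50, -0.55 for ranks 51 to 100 and -0.45 for ranks 101 to 200. Outside the set it was -0.35 for ranks 201 to 1000, -0.14 for ranks 1001 to 5000 and -0.20 for ranks 5001 to 18959. Without PBS replicate 2 the medians for the 3 groups of ranks within the set were -0.04, -0.06 and -0.10. Ranks 101 to 200 were then the lowest of the 3, and with all libraries they were the highest. The difference between the 200 and all tested was -0.10 without EV replicate 1, -0.14 without PBS replicate 2, -0.18 without EV replicate 2, -0.54 without PBS replicate 1 and -0.71 without EV replicate 3, so single libraries decided its size. It was -0.60 with the replicate block in edgeR and -0.61 with the block in DESeq2. In limma-voom it was -0.61 without a block and -0.41 with the block. No test was made of this shift.

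Few of the 200 separated the groups. On the scale of library totals 3 had every EV value above every PBS value, as 7.07% of all tested did, and 1 had every EV value below, as 1.2% did. With TMM scaling 1 was higher (4.51% of all tested) and 3 were lower (4.11%), namely rank 97 on the higher side and ranks 90, 121 and 131 on the lower. With library totals the fold changes of ranks 90 and 121 were 0.02 and 0.00 on the log2 scale, so their direction rested on the scaling. Counted by same-numbered pairs with TMM scaling, 79 of the 200 (39.5%) were lower in EV in all 3 pairs, against 13.7% of all tested, and 6 were higher, against 13.1%. With library totals 20 were lower, against 4.74%, and 25 were higher, against 26.8%. The share that was lower in every pair exceeded the background on both scales. The pairs rest on the same correlations as the block, which were 0.67 to 0.84 among the 200 and 0.21 to 0.31 over all tested. Transcripts that deviate together are not separate evidence, and the lower median fold change of the 200 also favours the lower side. The excess over the background is therefore no independent result about the 200.

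The transcript with the smallest p was ENSDART00000063800.7, of rank 131. It had 1640, 1976 and 1531 CPM in PBS replicates 1, 2 and 3 and 946.8, 557.1 and 578 CPM in EV replicates 1, 2 and 3. All 3 EV values lay below all 3 PBS values, with means of 1716 ± 232 CPM in PBS and 694 ± 219 CPM in EV (SD, n = 3 each). The fitted log2 fold change was -1.81 ± 0.49 (SE), with an edgeR p of 0.00463 and an adjusted p of 1.00. The exact two-sided permutation test gave p = 0.1, the smallest value that 3 against 3 allows. The fold change was between -2.02 and -1.31 under 18 alternatives, of which 2 passed the adjusted threshold, with adjusted p from 0.0217 to 1.00. It was -1.69 without PBS replicate 3. Its value was whole in all 3 PBS libraries and not whole in all 3 EV libraries. Division of reads was thus visible only in the group where it was lower, though a whole value does not show that no reads were divided. What part that division has in the difference was not tested.

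ENSDART00000066430.7, of rank 188, had the next smallest p. Its values were 372.5, 1670 and 1761 CPM in PBS and 551.3, 394.7 and 337.1 CPM in EV. PBS replicate 1 was as low as the EV libraries, so the groups overlapped. The exact two-sided permutation test gave p = 0.3. The log2 fold change was -2.25 ± 0.73 (SE), with an edgeR p of 0.0127 and an adjusted p of 1.00, and it ranged from -2.73 to -1.36 over 18 alternatives. Its adjusted p over them was from 0.0108 to 1.00, and 1 of them, edgeR without a filter on low counts, passed the threshold. None of its 6 values was whole.

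Ranks 60 and 127 were the other members with an unadjusted p under 0.05. Rank 60 had a log2 fold change of -3.84 ± 1.52 (SE, edgeR) and rank 127 one of -3.39 ± 1.49, and without PBS replicate 3 these were -0.48 and -0.19. Ranks 55 and 25, next in order of p, went from -3.48 and -3.59 to 0.50 and 0.34 without that library. Leaving it out also leaves EV replicate 3 without the library of its number. All 4 transcripts were lower in EV in each of the 3 same-numbered pairs, with either scaling. With the replicate block in edgeR their fold changes were between -2.79 and -2.34. The choice by mean CPM admitted these transcripts largely through their value in PBS replicate 3, which favours a lower value in EV replicate 3. Their direction in that pair and their fold changes with the block are therefore partly set by the choice. Ranks 24, 110, 151 and 10 completed the 10 with the smallest p among the lower ones, with fold changes between -1.27 and -0.84.

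On the higher side ENSDART00000065652.6, of rank 97, came first. It had 1514, 832.1 and 662.6 CPM in PBS and 2017, 1873 and 2150 CPM in EV. The 3 EV values were all above the 3 PBS values, at 2013 ± 139 CPM against 1003 ± 451 CPM (SD, n = 3 each). The log2 fold change was 0.67 ± 0.45 (SE), with an edgeR p of 0.17 and an adjusted p of 1.00, and an exact two-sided permutation test also came to p = 0.1, its lowest possible value. It was between 0.51 and 1.09 over 18 alternatives, with adjusted p from 0.661 to 1.00 and none past the threshold. ENSDART00000151606.2, of rank 134, had 713.9, 1188 and 139 CPM in PBS and 1853, 2464 and 756.9 CPM in EV. EV replicate 3 lay below PBS replicate 2, and the value in PBS replicate 3 was the lowest. Its log2 fold change was 0.81 ± 0.67 (SE), with an edgeR p of 0.258 and an adjusted p of 1.00, an exact permutation p of 0.2, and a range from 0.37 without PBS replicate 3 to 1.91 without PBS replicate 2 over the alternatives, which gave adjusted p from 0.251 to 1.00. None of the 6 values of either transcript was whole. Of the remaining 8 with the smallest p on this side, rank 92 separated the groups on the scale of library totals, with 1740, 904.4 and 802.7 CPM in PBS and 2577, 1747 and 2002 CPM in EV. Rank 54, not among these 8, did so too, with 1862 to 2721 CPM in PBS and 2872 to 3390 CPM in EV. Neither did with TMM scaling. Rank 54 was then lower in EV in 2 of the 3 same-numbered pairs, against 0 with library totals. Ranks 54, 90 and 121 are named because their groups were apart, which was chosen after their values were seen.

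**Figure D5:**
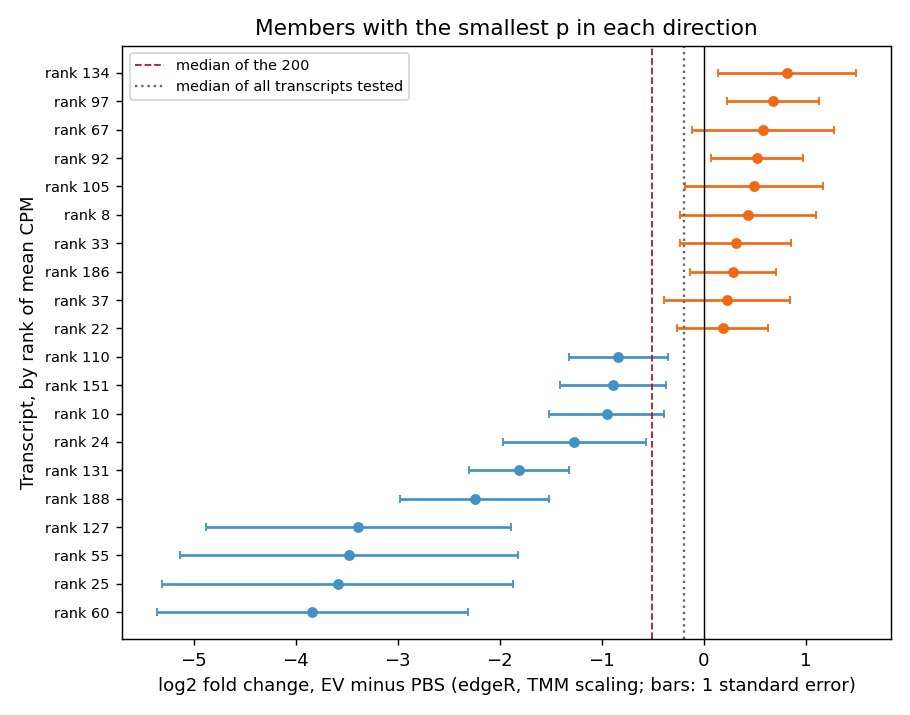
The log2 fold change of EV over PBS (horizontal axis, edgeR with TMM scaling, bars of 1 standard error) is shown for the 10 transcripts with the smallest p in each direction (vertical axis, by rank). The dashed line is the median of the 200 at -0.51 and the dotted line that of all transcripts tested at -0.20; ranks 127, 55, 25 and 60 have the widest bars, and no transcript passed an adjusted p of 0.05.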

How the data were processed

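The deposited table holds the authors' estimated counts for 57192 Ensembl transcripts in 6 libraries, with no normalisation and no summing over genes. The submitters' processing notes name Salmon 0.03.1, Trim Galore 0.5.0, edgeR 3.40.1 and build GRCz11, with no order of use; no annotation release is stated. Per the labels' protocols, cDNA was amplified for 15 cycles and sequenced as 150 bp pairs. Totals ran from 10393944 to 24332767 counts.

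Here CPM was computed from the deposited values and log2 values with a pseudocount of 0.5. Values were rounded to whole numbers for testing over the whole table with edgeR 4.0.16 in R 4.3.3 (filterByExpr, TMM scaling, quasi-likelihood F test, Benjamini-Hochberg adjustment, threshold 0.05). All 6 libraries entered, with the group as the term. Each standard error was obtained by dividing the absolute log2 fold change by the root of its F statistic. The alternatives used limma-voom (limma 3.58.1) and DESeq2 1.42.0, and the tests were tried on simulated counts. Single transcripts were also tested with exact permutation tests.

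Both groups carry replicate numbers 1 to 3. Their deviations from the group means correlated at 0.21, 0.30 and 0.31 for equal numbers and from -0.26 to 0.03 otherwise, over all transcripts tested. On this ground alone the numbers were taken to pair the libraries in the counts by pairs and in the block. The main tests did not use the pairing, since the labels do not say what a number marks.

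The members, the gene lists and the rules for naming were chosen with earlier results of these data known. Named are the 10 most abundant members, the 10 with the smallest edgeR p in each direction, the 5 with the largest and the 5 with the smallest SD, and 3 on each side of the edge. At most 4 are given by identifier, because 0 identifiers matched the reference tables, and lists of genes and cell type markers were not analysed here for that reason.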

Additional observations from a re-analysis of the deposited data

How the results depend on the processing

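The count of 0 members past an adjusted p of 0.05 held in 19 alternatives and became 5 without a filter on low counts, with DESeq2 and the replicate block, and with limma-voom and the replicate block. Over all transcripts these gave 427, 163 and 24 calls (1.09%, 0.86% and 0.127% of those tested), and DESeq2 without the block 62 (0.327%). Without 1 library both counts stayed at 0 in each of 6 edgeR fits. The cause of these differences was not tested. At an unadjusted p under 0.05 there were 4 members, beside 547 of all 18959 tested. The count became 7 with library totals (416 of all tested), 11 without a filter (3055 of 39325) and 2 with limma-voom (613). It was 15 with the replicate block in edgeR (499) and in DESeq2 (1507). With limma-voom and the replicate block it was 69 (3 higher, 66 lower), beside 1098. With block and library totals (chosen after seeing the data) it was 20, beside 856. Without 1 library it was 1 to 13. It was 1 without PBS replicate 3 (773 of 21190), 2 without EV replicate 1 (549 of 20784) and 2 without EV replicate 2 (512 of 20862). It was 7 without PBS replicate 1 (1406 of 21142) and 13 without EV replicate 3 (646 of 21514). With 200 chosen by median CPM or by mean CPM without PBS replicate 3, and with the top 100, it was 1 each. With the top 500 it was 10. These choices leave the background at 547 of 18959, and the count of 4 thus depended on how the members were chosen.

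The 4 members whose groups did not overlap became 9 with the top 500, and 5 (without EV replicate 1) to 53 (without EV replicate 3) when 1 library was left out, which leaves fewer values to separate. Without EV replicate 3, 12 members (6%) were higher and 41 (20.5%) lower, against 20.4% and 2.77% of all tested. Without EV replicate 1, 4 (2%) were higher and 1 (0.5%) lower, against 9.33% and 2.51%. In either direction it was 20 (10%) without PBS replicate 1, against 25.1% of all tested, and 7 (3.5%) without PBS replicate 2, against 22.6%. It was 21 (10.5%) without PBS replicate 3, against 16.2%, and 10 (5%) without EV replicate 2, against 11.9%. The share of counts was 44.8% in PBS and 40.6% in EV for the top 100 and 69.7% and 65.7% for the top 500, by construction; without 1 library it was 53.3% to 58.5% in PBS and 48.9% to 52.7% in EV. The median SD within groups became 0.66 with TMM scaling and was 0.45 to 0.57 without 1 library. The count of members in every library's own 200 was 120 to 133 over 5 libraries (chosen after seeing the data). Without 1 library the log2 fold change of rank 55 ran from -5.64 to 0.50 and that of rank 25 from -6.11 to 0.34, both turning without PBS replicate 3. Those of ranks 8 (-0.13 to 1.03), 33 (-0.15 to 0.73) and 37 (-0.18 to 0.99) turned without EV replicate 1.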
